A study of Homo sapiens with 2 samples.

Results

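The amino acid transporters described here are the 41 protein-coding genes of the SLC1, SLC3, SLC7, SLC36, SLC38 and SLC43 families, taken by name from a table of 58735 genes of which 19951 were protein-coding. Of the 41 genes, 39 were counted as transporters of amino acids or their partner subunits. These include SLC38A6, which has no established substrate, and SLC7A4, a relative of the cationic carriers. The name match also took in SLC43A3, which encodes a carrier of purine nucleobases, and SLC7A6OS, a gene on the opposite strand of SLC7A6 that encodes no transporter. The cells were U87MG, a line established from a human glioblastoma, cultured as spheres under stem cell conditions for a week before total RNA was sequenced. There were 2 groups of 1 library each, cells with an shRNA against TRIP13, an ATPase of the spindle checkpoint, and cells with a control shRNA from the pGIPZ vector. Both were infected with lentivirus and selected with puromycin as stable clones, so each library stands for 1 selected culture.

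Amino acid carriers set which amino acids a cell can take up, exchange or release. The SLC7 light chains work as dimers with an SLC3 heavy chain, and the pair of SLC7A5 and SLC3A2 brings in leucine and other large neutral amino acids in exchange for glutamine that SLC1A5 and the SLC38 carriers accumulate. In brain, SLC1A2 and SLC1A3 of astrocytes clear glutamate from synapses, while SLC7A11, again with SLC3A2, takes up cystine for glutathione synthesis and releases glutamate.

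The library labelled TRIP13 shRNA held 19903836 reads and the control library 18871063, a ratio of 1.05. FPKM, the fragments of a gene per kilobase of exons, scaled to library size, had been divided by 1 common total in both columns, so FPKM ratios carry this difference in depth. TRIP13 itself, the target named on that library, had the higher level there, at 23.1 against 11.9 FPKM, a ratio of 1.95 (95% counting interval 1.79 to 2.12). That value goes against the label, and every direction below is one between libraries as labelled. Since each group is 1 library, the values below have no replicate error and no test. The intervals given with ratios are 95% Clopper-Pearson ones, computed from how the reads of a gene divide between the libraries, and cover counting error only. Of 10 glioma and stem cell markers 6 passed the limit of a mean FPKM of 1. All 6 had log2 ratios below 0 (39.6% of all protein-coding genes past it did) and 2 were 2-fold lower (4.19% were). VIM had 427 against 442 FPKM and CD44 112 against 115 FPKM, EGFR had 13.8 against 16.8 and NES 2.21 against 5.23, and the 2-fold lower ones were SOX9 (0.747 against 4.39 FPKM) and OLIG2 (0.339 against 2.72 FPKM). SOX2 (1 against 2 reads) and PROM1 (1 against 5 reads) were near 0 in both libraries. The part of these markers in the results below was not tested.

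Of the 41 genes, 21 had a mean FPKM of 1 or more and were compared. On the log2 ratio, the log2 of (FPKM + 1) in the library labelled TRIP13 shRNA over (FPKM + 1) in the control, 0 of the 21 were 2-fold higher and 0 were 2-fold lower. Of all 10671 protein-coding genes compared, 2.17% were 2-fold higher and 4.19% 2-fold lower. Scaling moved the lower calls. SLC38A2 and SLC7A8 were 2-fold lower with own totals, beside 1.67% higher and 4.81% lower of all genes, and with the median ratio set to 1, beside 1.3% and 5.14%. After rescaling to TPM 4 of 24 genes were 2-fold lower and 0 higher, beside 7.85% and 2.27% of all genes. The log2 ratios of the 21 genes ran from -1.0 for SLC7A8 to 0.94 for SLC7A1. Their median was 0.10, beside 0.12 over all genes compared. The log2 ratio was above 0 for 13 genes and below 0 for 8, beside 60.2% and 39.6% of all genes. With own totals these were 12 and 9 genes, beside 55.1% and 44.9%, and with the median ratio set to 1 they were 10 and 11, beside 50% and 50%. At a smaller size, added after the values were seen, 6 genes had an FPKM ratio of 1.5 or more (SLC7A1, SLC38A7, SLC36A1, SLC7A5, SLC1A4 and SLC7A6), which is 28.6% of the 21 beside 16.9% of all genes compared. With each library divided by its own total these were 5 genes, without SLC7A6, and 13.0% of all genes. An FPKM ratio of 1/1.5 or less was found for 4 genes (SLC7A8, SLC1A1, SLC38A2 and SLC36A4), so 4 of 21 beside 13.2% of all genes, and 15.4% of all genes at own totals. With own totals the counting interval lay above 1 for 9 of the 21, below 1 for 7 and around 1 for 5, beside 43.2%, 34% and 22.8% of all genes.

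The summed FPKM of the 41 genes was nearly equal, 370.3 in the library labelled TRIP13 shRNA, against 363.0 in the control, while its make-up differed. SLC3A2 had rank 1 in the library labelled TRIP13 shRNA with 15.9% of the sum, against 11.5% and rank 4 in the control library. SLC38A2 made up 10.4% of the sum in the library labelled TRIP13 shRNA, at rank 5, against 20.5% and rank 1 in the control library. SLC43A3 and SLC1A5 held ranks 2 and 3 in both. The next ranks in the library labelled TRIP13 shRNA were SLC38A1, SLC38A2, SLC7A1 and SLC7A5, with FPKM of 39.8, 38.6, 31.1 and 21.7. SLC38A1 and SLC38A2, close to each other there, stood at 37.5 and 74.5 FPKM in the control library.

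**Figure D1:**
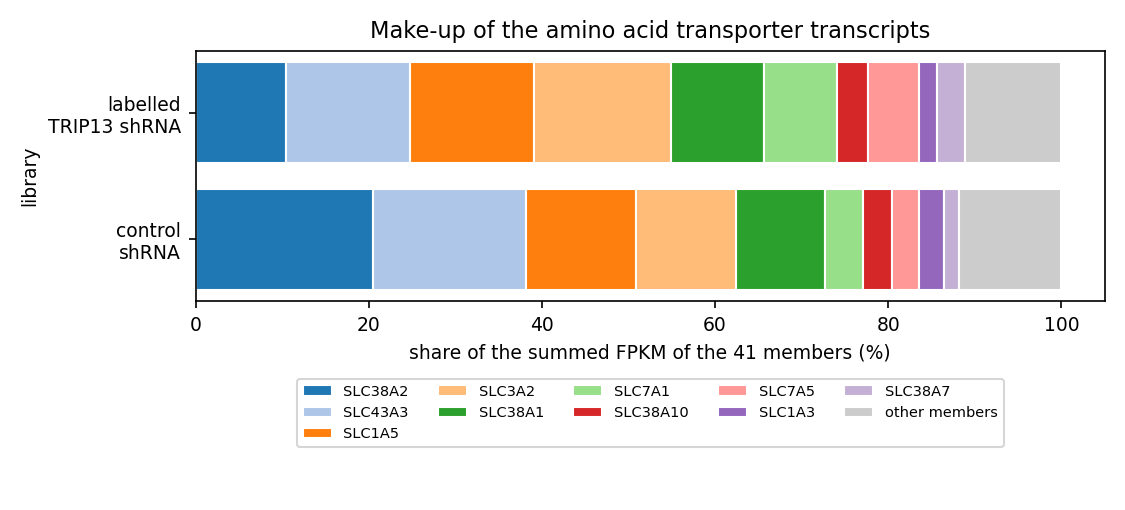
Share of each gene in the summed FPKM of the 41 amino acid transporter genes, with the library labelled TRIP13 shRNA above and the control library below, for the 10 most abundant genes and, in grey, the rest. The SLC38A2 segment covers 10.4% against 20.5%, and the segments of SLC3A2 (15.9% against 11.5%) and SLC7A1 (8.39% against 4.32%) are wider in the library labelled TRIP13 shRNA.

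The heavy chain SLC3A2 (CD98) had 5917 against 4196 reads and 59.0 against 41.8 FPKM, a ratio of 1.41 (1.36 to 1.47). Its partner SLC7A5 (LAT1), which exchanges leucine and other large neutral amino acids, had 1993 against 1053 reads and 21.7 against 11.5 FPKM, a ratio of 1.89 (1.76 to 2.04). Both members of the LAT1 pair were thus higher in the library labelled TRIP13 shRNA. SLC7A6 (y+LAT2), an exchanger of cationic for neutral amino acids, had 882 against 565 reads and 5.998 against 3.84 FPKM, a ratio of 1.56 (1.40 to 1.74). Of its exon length, 44.4% is shared with SLC7A6OS on the opposite strand, and the strand setting of the counting is not given in the sources used here, so the reads of these genes cannot be told apart. SLC7A6OS itself had 225 against 196 reads and 2.22 against 1.93 FPKM, a ratio of 1.15 (0.944 to 1.40) with 1 inside its interval.

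Among the light chains SLC7A8 went the other way. SLC7A8 (LAT2), which carries a broader range of neutral amino acids than LAT1, had 257 against 628 reads and 2.21 against 5.41 FPKM. It was thus 2.44-fold (2.11 to 2.84) below the control, and its log2 ratio of -0.996 came just short of the 2-fold size. Within a library, SLC7A5 stood 9.79-fold above SLC7A8 in FPKM in the library labelled TRIP13 shRNA, against 2.12-fold in the control library, a 4.62-fold difference (3.92 to 5.47) that no scaling of the libraries can move. SLC7A11 (xCT), the cystine and glutamate exchanger, was level at 524 against 497 reads and 2.80 against 2.66 FPKM, a ratio of 1.05 (0.931 to 1.19). The sign of its log2 ratio of 0.06 was not stable, and with the median ratio of all genes set to 1 the value was -0.05. SLC7A7 (y+LAT1), the exchanger mutated in lysinuric protein intolerance, lay below the FPKM limit with 10 against 67 reads, 6.70-fold lower (3.43 to 14.6). Microglia and macrophage markers, of a cell type in which SLC7A7 is expressed, summed to 4.34 against 8.70 FPKM over 7 genes, of which 2 passed the FPKM limit and AIF1 and P2RY12 had 0 reads in both libraries. Most of that difference was TMEM119, at 0.696 against 4.40 FPKM, while CSF1R stood at 3.31 against 3.75 FPKM. Their part in the SLC7A7 value was not tested. The 6 light chains that pair with SLC3A2 summed to 32.8 FPKM in the library labelled TRIP13 shRNA, against 24.0 in the control, below the level of SLC3A2 in each.

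**Figure D2:**
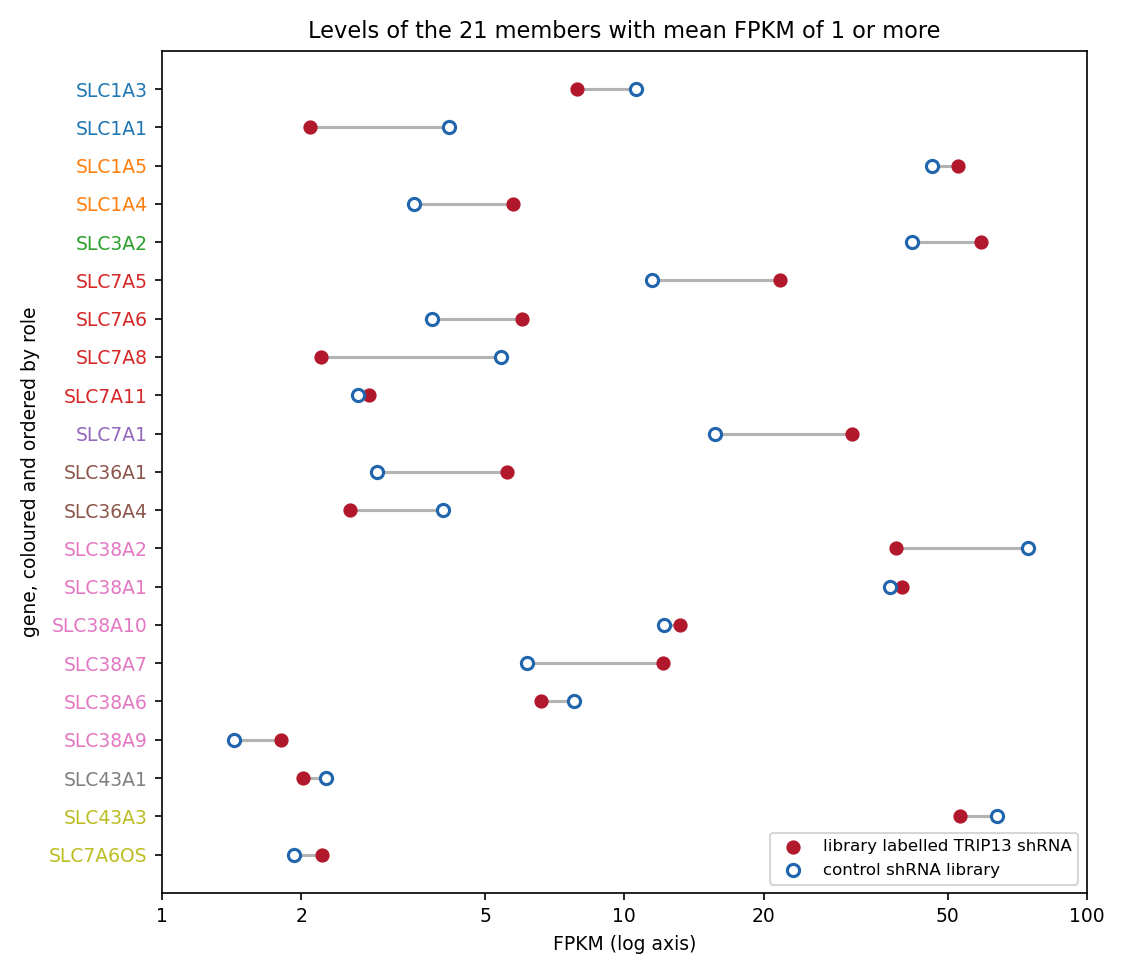
FPKM on a log axis of the 21 amino acid transporter genes compared, in the library labelled TRIP13 shRNA (filled) and the control library (open), with gene names ordered and coloured by role and a grey line joining the pair. The longest lines to the right of the control point are those of SLC7A1, SLC38A7, SLC36A1 and SLC7A5, and the longest to its left those of SLC7A8, SLC1A1 and SLC38A2.

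Of the cationic amino acid carriers, SLC7A1 (CAT1), the widespread importer of arginine and lysine, was the only one with a mean FPKM of 1 or more. It had 4629 against 2337 reads and 31.1 against 15.7 FPKM, a ratio of 1.98 (1.88 to 2.08), the highest of the 21 genes. SLC7A4, a relative of the cationic carriers, had 24 against 47 reads, 1.96-fold lower (1.17 to 3.35). SLC7A2 had 0 against 6 reads and SLC7A14 had 0 against 2, while SLC7A3 had none in either library. The genes of this group other than SLC7A1 and SLC7A4 were thus at or near 0 in both libraries.

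Both glutamate and aspartate transporters above the FPKM limit stood below the control in the library labelled TRIP13 shRNA. SLC1A3 (EAAT1), an astrocyte glutamate transporter, had 960 against 1286 reads and 7.91 against 10.6 FPKM, 1.34-fold lower (1.23 to 1.46). SLC1A1 (EAAT3), which also takes up cysteine, had 162 against 324 reads and 2.09 against 4.18 FPKM, 2.0-fold lower (1.65 to 2.43). SLC1A2 (EAAT2), the main glutamate transporter of mature astrocytes, had only 17 against 34 reads. SLC1A7 had 0 against 1 read and SLC1A6 none in either library. Astrocyte markers other than these summed to 80.7 against 151 FPKM over 7 genes. Of these 3 passed the FPKM limit, all with log2 ratios below 0 (39.6% of all genes were). They were GJA1 (62.3 against 103 FPKM), GLUL (11.7 against 25.03 FPKM) and ALDOC (6.38 against 22.5 FPKM). AQP4 was at 0 in both libraries and GFAP had 28 against 92 reads. ALDH1L1 had 1 against 5 reads, and S100B, at 4 against 0 reads, went the other way. The part of these markers in the SLC1A1 and SLC1A3 values was not tested. Other marker lists, whose part in the results was not tested, summed to 9.78 against 11.1 FPKM for neurons (STMN2 at 0), 35.7 against 23.8 for oligodendrocytes (MOG at 0), 2.90 against 5.26 for endothelium and 80.5 against 117 for fibroblasts. Both libraries came from cultures of the U87MG line, so these sums describe marker transcripts in that line and do not count such cell types. In bulk RNA, fewer cells with a transcript and less of it per cell cannot be told apart.

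The neutral amino acid exchangers of the SLC1 family stood higher. SLC1A5 (ASCT2), the glutamine exchanger, had 3404 against 2990 reads and 52.7 against 46.3 FPKM, a ratio of 1.14 (1.08 to 1.20), or 1.08 (1.03 to 1.13) at own totals. Of its exon length, 23.4% is shared with an antisense gene. SLC1A4 (ASCT1), an exchanger of alanine, serine and cysteine, had 774 against 473 reads and 5.76 against 3.52 FPKM, a ratio of 1.64 (1.46 to 1.84). The glutamine exchanger was thus the more abundant of the pair in both libraries, by 9.16-fold in the library labelled TRIP13 shRNA, against 13.2-fold in the control.

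The sodium-coupled SLC38 carriers held the genes with the most reads over both libraries, SLC38A1 and SLC38A2, and went both ways. SLC38A2 (SNAT2), which takes up glutamine, alanine and other small neutral amino acids, had 4939 against 9531 reads and 38.6 against 74.5 FPKM. It was thus 1.93-fold (1.864 to 1.998) below the control, with a log2 ratio of -0.93 that came to -1 or less under each scaling of the libraries tried. SLC38A1 (SNAT1), a close relative with similar substrates, had 7718 against 7282 reads and 39.8 against 37.5 FPKM, a ratio of 1.06 (1.03 to 1.09) that was 1.005 (0.973 to 1.04) at own totals. The genes lie 88.2 kb apart on chromosome 12 of hg38, SLC38A1 at 46183063 to 46270017 and SLC38A2 at 46358189 to 46372867, both on the minus strand. The FPKM of SLC38A1 was 1.03-fold that of SLC38A2 in the library labelled TRIP13 shRNA. In the control library it was 0.504-fold, a difference of 2.05-fold (1.95 to 2.14). SLC38A4, the next gene of that cluster, had 3 against 17 reads.

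The remaining SLC38 genes include carriers of the lysosome. SLC38A7 (SNAT7), which moves glutamine and asparagine out of lysosomes, had 1641 against 834 reads and 12.1 against 6.16 FPKM, a ratio of 1.97 (1.81 to 2.14). SLC38A9, the lysosomal carrier through which arginine is sensed for the growth kinase mTORC1, had 309 against 245 reads and 1.81 against 1.43 FPKM, a ratio of 1.26 (1.06 to 1.498). SLC38A10 had 1972 against 1824 reads and 13.2 against 12.2 FPKM, a ratio of 1.08 (1.01 to 1.15), or 1.03 (0.961 to 1.09) at own totals. SLC38A6, a member without an established substrate, stood at 6.60 against 7.77 FPKM, 1.18-fold lower (1.06 to 1.31). The system N genes SLC38A3 and SLC38A5 had 1 against 1 and 4 against 11 reads. SLC38A8 had 2 against 0 reads and SLC38A11 had 1 against 0.

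Both measured proton-coupled carriers of the SLC36 family differed, in opposite directions. SLC36A1 (PAT1), which exports small neutral amino acids from lysosomes, had 755 against 394 reads and 5.58 against 2.91 FPKM, a ratio of 1.92 (1.69 to 2.17). SLC36A4 (PAT4), a high-affinity carrier of proline and tryptophan, had 479 against 761 reads and 2.55 against 4.05 FPKM, 1.59-fold lower (1.42 to 1.78). SLC36A1 was 2.19-fold above SLC36A4 in FPKM in the library labelled TRIP13 shRNA and 0.718-fold of it in the control library, a 3.04-fold difference (2.57 to 3.61). SLC36A2 and SLC36A3, the neighbours of SLC36A1 on chromosome 5, had no reads in either library.

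The facilitated carriers of large neutral amino acids showed no difference beyond counting error. SLC43A1 (LAT3) had 138 against 155 reads and 2.02 against 2.26 FPKM, 1.12-fold lower with 1 inside the interval (0.887 to 1.42). SLC43A2 (LAT4), below the FPKM limit, had 130 against 150 reads, with an interval of the ratio from 0.680 to 1.10. SLC43A3, the nucleobase carrier of this family, had 4657 against 5595 reads and 53.2 against 63.9 FPKM, 1.20-fold lower (1.16 to 1.25). It lies 57.0 kb from SLC43A1 on chromosome 11, and 29.9% of its exon length is shared with another protein-coding annotation on the same strand.

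Of the 20 genes below the FPKM limit, 5 had 20 reads or more over both libraries (SLC7A4, SLC43A2, SLC7A7, SLC38A4 and SLC1A2), 11 had fewer, with at most 11 in a library, and 4 had none. Among the 11 were the subunits of the kidney cystine transporter, SLC3A1 with 2 against 0 reads and SLC7A9 with 0 against 1. SLC7A10 had 1 against 0 reads and SLC7A13 had 0 against 1. For the 4 genes without reads, the 3 reads that a count of 0 allows correspond to 0.0202 to 0.0683 FPKM.

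**Figure D3:**
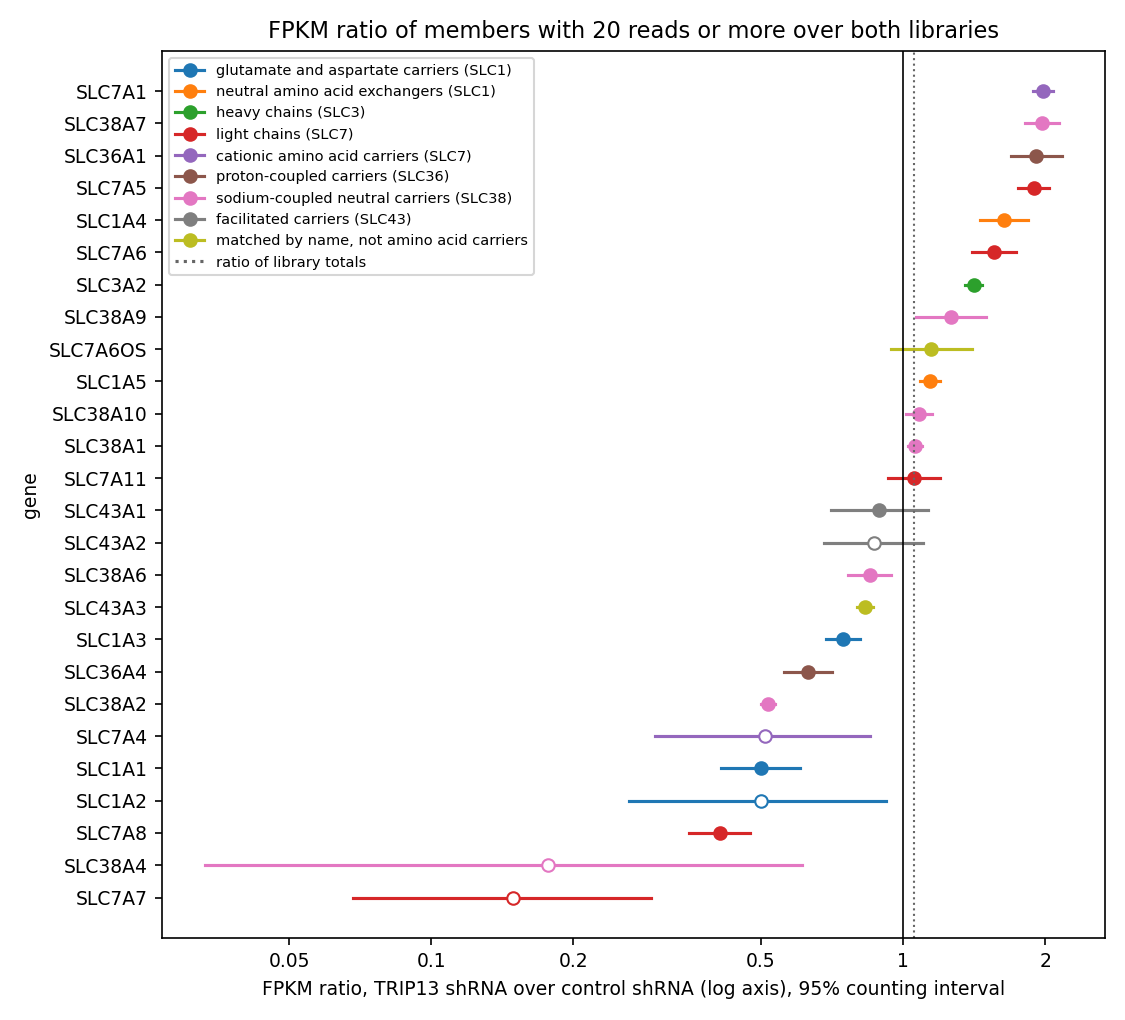
FPKM ratio, the library labelled TRIP13 shRNA over the control library, on a log axis for the 26 amino acid transporter genes with 20 reads or more over both libraries. Bars are 95% counting intervals, open points lie below the FPKM limit, and the dotted line is the ratio of library totals, 1.05. SLC7A1, SLC38A7, SLC36A1 and SLC7A5 sit together between 1.89 and 1.98, and SLC7A7 at 0.149 is the lowest.

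The upstream sequences of the genes that differed most are shown to give the DNA beside the values. RefSeq start sites (GRCh38.p14) were listed for 32 of the 41 genes, in 54 windows. They covered 19 of the 21 genes compared. SLC7A11 and SLC43A3 had no window and were not searched. Of the genes with a single listed start, SLC7A1 and SLC7A5 had the highest log2 ratios and SLC38A2 and SLC1A1 the lowest. Each line gives the 250 bases before the start, 5′ to 3′ on the strand of the gene, with matches to any of 3 motifs in capitals.
SLC7A1 (chr13:29595689-29595938, minus strand): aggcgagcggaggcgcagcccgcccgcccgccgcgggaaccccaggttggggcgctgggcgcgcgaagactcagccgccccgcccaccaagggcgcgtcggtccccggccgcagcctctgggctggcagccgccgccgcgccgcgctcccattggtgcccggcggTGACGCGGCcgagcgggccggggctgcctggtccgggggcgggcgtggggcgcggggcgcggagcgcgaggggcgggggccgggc
SLC7A5 (chr16:87869508-87869757, minus strand): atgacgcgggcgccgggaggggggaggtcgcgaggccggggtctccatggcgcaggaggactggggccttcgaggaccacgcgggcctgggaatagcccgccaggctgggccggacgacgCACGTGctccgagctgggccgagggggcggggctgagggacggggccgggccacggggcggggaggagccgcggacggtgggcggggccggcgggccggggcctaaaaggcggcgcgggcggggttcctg
SLC38A2 (chr12:46372774-46373023, minus strand): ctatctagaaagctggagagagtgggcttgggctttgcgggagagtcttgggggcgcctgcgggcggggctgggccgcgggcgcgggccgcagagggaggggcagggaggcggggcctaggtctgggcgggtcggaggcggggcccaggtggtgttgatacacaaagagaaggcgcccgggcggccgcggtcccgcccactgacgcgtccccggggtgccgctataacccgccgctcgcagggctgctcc
SLC1A1 (chr9:4490218-4490467, plus strand): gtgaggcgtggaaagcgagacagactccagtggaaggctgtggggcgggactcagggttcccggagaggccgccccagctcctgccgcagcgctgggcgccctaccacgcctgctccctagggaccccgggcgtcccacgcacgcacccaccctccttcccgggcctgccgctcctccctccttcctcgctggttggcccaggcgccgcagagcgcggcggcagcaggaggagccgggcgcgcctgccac

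The motifs were searched on both strands. The E-box CACGTG, the core bound by MYC and related factors, starts 130 bases before the start of SLC7A5, and was found in 14.8% of the 54 windows beside 6.34% of all 35116 and 8.49% of the 12569 windows of genes past the FPKM limit. The antioxidant response element TGACNNNGC, bound by NRF2, starts 85 bases before the start of SLC7A1, and was found in 11.1% of the windows beside 10.9% of all and 11.7% of those past the limit. The C/EBP-ATF response element TGATGNAA, through which ATF4 acts, was found in 3.70%, beside 3.14% of all and 1.66% of those past the limit. In the 36 windows of the transporter genes past the limit, the E-box was in 13.9%, the antioxidant element in 13.9% and the C/EBP-ATF element, in SLC1A3 and SLC1A5, in 5.56%. No matches overlapped. The windows of SLC38A2 and SLC1A1 held none of these letters, which says nothing of other parts of the genes. Past the limit, E-boxes were in windows of SLC7A5, SLC36A1, SLC1A5, SLC43A1 and SLC7A8. Antioxidant elements were in windows of SLC7A1, SLC7A6, SLC3A2, SLC1A5 and SLC1A3. Genes higher and genes lower in the library labelled TRIP13 shRNA thus both held matches, among them SLC7A8 with the lowest log2 ratio. A match is a description and not a site of binding.

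Lists of amino acid metabolism genes were set beside the transporters. Genes of serine, glycine, proline and one-carbon synthesis had a median log2 ratio of 0.51 over 13 genes (0.37 to 0.53 over the settings tried). Of these 12 were above 0 (60.2% of all genes were), 2 were 2-fold higher (2.17% of all genes were) and none 2-fold lower. PSAT1, of serine synthesis, stood at 52.8 against 19.2 FPKM and PYCR3, of proline synthesis, at 9.83 against 4.02 (log2 ratio 1.11, or 0.98 with the median ratio set to 1), while PYCR1 stood at 11.3 against 10.4 and ALDH1L2 at 3.20 against 3.21. The cytosolic aminoacyl-tRNA synthetases, which load tRNAs, had a median of 0.37 over 20 genes (0.23 to 0.38 over the settings tried). Of these 19 were above 0 and 2 at least 2-fold higher. FARSA, at 82.9 against 39.9 FPKM, and FARSB, at 31.8 against 14.9 FPKM, are subunits of the same enzyme. Neither was 2-fold higher at own totals, where their log2 ratios were 0.96 and 0.97. VARS stood at 25.3 against 23.4 FPKM, with a sign that turned under some scalings, and QARS, the glutamine enzyme, at 30.9 against 36.6 FPKM. Mitochondrial carriers of amino acids had a median of 0.35 over 10 genes (0.22 to 0.42 over the settings tried). Of these 9 were above 0 and none past the 2-fold size. SLC25A38, the glycine carrier, stood at 21.1 against 12.4 FPKM and SLC25A12, an aspartate and glutamate carrier, at 11.1 against 6.73, while SFXN3 stood at 32.7 against 31.0 and SLC25A29 at 3.99 against 5.69.

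Glutamine and glutamate enzymes had a median of 0.35 over 10 genes (0.17 to 0.37 over the settings tried). CTPS1, of cytidine synthesis, was at least 2-fold higher at 12.01 against 4.78 FPKM. GOT2 stood at 38.8 against 24.2 and GFPT1, of hexosamine synthesis, at 14.1 against 20.8. GLUL, which makes glutamine, was at least 2-fold lower at 11.7 against 25.03 FPKM. Genes of mTORC1 amino acid sensing had a median of 0.24 over 20 genes (0.03 to 0.32 over the settings tried) with none past the 2-fold size. RPTOR, the scaffold of the complex, stood at 14.6 against 7.41 FPKM and RRAGC at 8.97 against 5.47, while CASTOR2 stood at 1.06 against 2.12 and RRAGA at 33.6 against 46.4. Other amino acid carriers of the plasma membrane and lysosome, of which 8 of 19 passed the FPKM limit, had a median of 0.08 (-0.05 to 0.10 over the settings tried). Among these the lysosomal carriers PQLC2 (22.9 against 14.9 FPKM) and MFSD12 (37.0 against 24.3 FPKM) stood highest, and SLC6A15 (5.86 against 10.1 FPKM) and the taurine carrier SLC6A6 (23.5 against 29.01 FPKM) lowest.

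The ATF4 list holds genes of the response to amino acid shortage. It also holds the kinases EIF2AK3 (3.15 against 4.20 FPKM) and EIF2AK4 (7.40 against 9.74 FPKM), which act upstream of ATF4. The list went both ways with a median of -0.10 over 16 genes (-0.28 to 0.09 over the settings tried). In it 1 gene was 2-fold higher and 2 genes 2-fold lower, beside 2.17% and 4.19% of all genes. STC2 stood at 106 against 10.2 FPKM and the log2 ratio of ATF5 was 0.77. DDIT4 stood at 15.2 against 62.4 FPKM and ATF3 at 3.33 against 9.23. DDIT4 shares 41.2% of its exon length with an antisense gene. ATF4 itself had 81.1 against 100 FPKM. Several of its known targets are transporters, but these were not set as a list, and the ones named here are examples. SLC7A5, SLC3A2, SLC7A1 and SLC1A4 stood higher than in the control library, SLC7A11 level and SLC38A2 lower. As 60.2% of all genes had a log2 ratio above 0, these examples give no direction for the ATF4 targets as a set. Cysteine and glutathione genes include makers of cysteine as well as users of it. Their median was 0.00 over 9 genes (-0.12 to 0.00 over the settings tried). Of these 1 was 2-fold higher and 2 were 2-fold lower, beside 2.17% and 4.19% of all genes. CHAC2, a glutathione-degrading enzyme, was the higher one at 9.61 against 2.42 FPKM, and TXNRD1 stood at 70.2 against 43.7. The lower ones were CTH, at 3.72 against 11.1 FPKM, and GCLM, at 7.32 against 17.7. The list of NRF2 targets had a median of 0.34 over 12 genes (0.21 to 0.36 over the settings tried). None of the 12 was past the 2-fold size. Of these 7 were above 0 and 5 below 0, beside 60.2% and 39.6% of all genes. The list also holds NFE2L2, which encodes NRF2 itself, and KEAP1, which represses NRF2, with log2 ratios of 0.587 and 0.603. Its median is thus not one of targets alone. SRXN1 stood at 3.94 against 1.72 FPKM, NQO1 at 55.9 against 30.4 and FTH1 at 1300.0 against 1567. Of the exon length of SRXN1, 85.0% is shared with another gene, and of FTH1 62.4%. Genes of branched-chain amino acid breakdown had a median of 0.11 over 7 genes. DLD stood at 24.5 against 16.4 FPKM, BCKDHB at 3.76 against 3.19 and BCAT1 at 17.4 against 32.0. PPM1K was at least 2-fold lower at 1.06 against 3.74 FPKM.

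**Figure D4:**
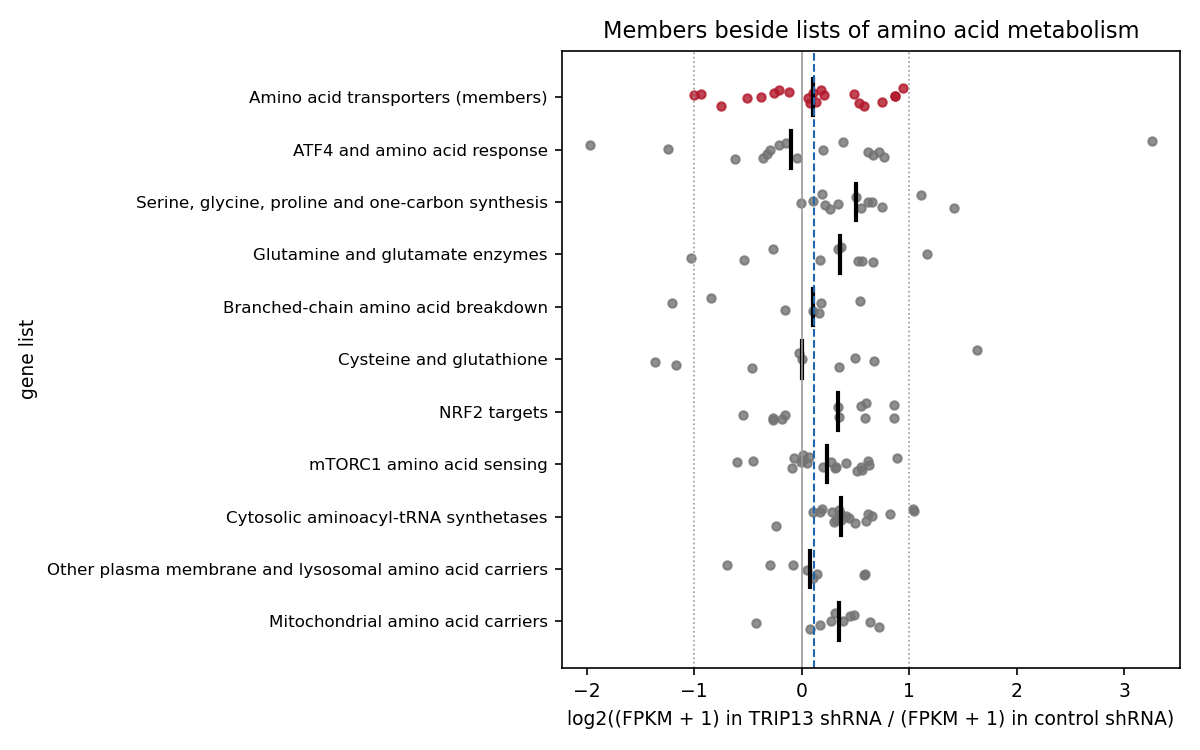
Log2 ratio, (FPKM + 1) in the library labelled TRIP13 shRNA over (FPKM + 1) in the control library, of the 21 amino acid transporter genes (top) and of 10 lists, with 1 point per gene compared. Black bars are medians, dotted lines mark 2-fold and the dashed line the median of all genes, 0.12. The transporters spread on both sides between -1.0 and 0.94 around a median of 0.10, while the synthetases and the serine and one-carbon genes lie mostly to the right of 0.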

How the data were processed

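The authors deposited FPKM values per gene for 2 libraries, 1 per group. Per the submitters' processing notes, the tools were HISAT2 2.0.5, featureCounts 1.5.0-p3 and edgeR and the build hg38, with no roles stated. Annotation and strand setting: not given in the sources used here. Gene lengths equalled the merged exons of GENCODE 29 for all 58735 genes. FPKM times length gave whole multiples of 51.6 in both libraries, within 0.001 of a read for 100% of the values, so reads were recovered by division.

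The comparison took protein-coding genes whose mean FPKM reached 1, with a pseudocount of 1, and a log2 ratio of 1 or more, or -1 or less, was the fixed size. PCR copies of a molecule cannot be recognised here, so intervals and the floor of 3 reads cover counting error only. Every member is named, those with a mean FPKM of 20 or more also with reads, and from each of 10 pathway lists the 2 highest and 2 lowest genes past the FPKM limit. The values of 1 gene this rule names are not reported here. The genes, lists and sizes were chosen with earlier results of these data known. Within-library ratios, motifs and printed promoters were chosen after the values were seen. The calculations were tested on simulated data. Computation used scipy 1.17.1 and pandas 2.3.3 on numpy 2.4.6 under Python 3.11.15, with figures from matplotlib 3.10.9.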

Additional observations from a re-analysis of the deposited data

How the results depend on the processing

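No paired analysis was possible because there is only 1 library per group. The number of transporter genes at least 2-fold higher was 0 in every setting tried. The number at least 2-fold lower was 0 as reported and 1 with a pseudocount of 0.1 (SLC7A8), beside 6.34% of all genes. It was 2 with each library divided by its own total (SLC38A2 and SLC7A8), 2 with the median ratio of tested genes set to 1, 4 after rescaling to TPM (with SLC1A1 and SLC7A7) and 3 from recovered reads with 5 added (with SLC1A1), beside 4.81%, 5.14%, 7.85% and 7.24% of all genes. The median log2 ratio of the transporters was 0.00 with no filter, -0.026 with the median ratio set to 1 and -0.034 after rescaling to TPM, against 0.10 as reported. The log2 ratio of TRIP13 was 0.74 with a pseudocount of 5 and 0.77 with the median ratio set to 1, against 0.90 as reported. The sign of the log2 ratio was the same in every setting for 18 of the 21 transporters, and it turned for SLC38A1, SLC38A10 and SLC7A11. Leaving out SLC43A3 and SLC7A6OS changed neither the 2-fold counts nor the median. The medians of the ATF4, branched-chain (-0.01 to 0.16) and other carrier lists turned sign between settings. Of the 61 named genes, 13 were past the 2-fold size and 0 of these turned direction, but only PSAT1, STC2 and DDIT4 were past it in every setting tried. Without replicates no value here separates the shRNA from differences between cultures.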

Other observations

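Rows of the same families outside the protein-coding genes are 4 in number and lie outside the comparisons above. SLC7A5P1, a pseudogene close in sequence to SLC7A5, had 31 against 29 reads, a ratio of 1.07 (0.623 to 1.84). SLC7A11-AS1, which overlaps SLC7A11 on the opposite strand, had 11 against 10 reads, beside 524 against 497 reads of SLC7A11. Without the strand setting, reads from their shared exon sequence cannot be told apart. SLC7A5P2 and SLC7A15P had 0 reads in both libraries.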
